A study of Mus musculus with 8 samples.

Results

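The dual-specificity phosphatases (DUSPs) that act on MAP kinases were followed across 8 RNA-seq libraries of mouse macrophages. The 9 genes were taken by symbol from the deposited table, out of 53715 genes in all: Dusp1, Dusp2, Dusp4, Dusp5, Dusp6, Dusp7, Dusp8, Dusp10 and Dusp16. They form 3 classes, with 4 nuclear inducible members (Dusp1, Dusp2, Dusp4, Dusp5), 2 cytoplasmic ERK-selective members (Dusp6, Dusp7) and 3 JNK/p38-selective members (Dusp8, Dusp10, Dusp16). The classes come from textbook knowledge of the proteins and not from these measurements.

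All cells lacked endogenous Sting (Sting-/-), and all received 500 µg/ml of CMA for 4 h. CMA (10-carboxymethyl-9-acridanone) is a compound that mouse STING binds and that switches it on. The groups differed in the transgene, with 2 libraries each. The zfCTT cells carried mouse STING with the C-terminal tail of zebrafish STING (mSTING-zfCTT), the mSTING cells carried mouse STING, the dCTT cells carried mouse STING without its C-terminal tail (mSTING-dCTT), and the no_transgene cells, titled MSCV2.2, carried none. The series title places the question in the C-terminal tail and its part in interferon and NF-κB signalling. No library came from cells without CMA, so no value here is a response to the compound. The promoter that drives the transgene, the number of clones per line and the origin of the replicates were not stated in the labels, so p-values measure a spread between libraries that may be technical.

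MAP kinases (ERK, JNK and p38) are switched on by phosphorylation of a threonine and a tyrosine in their activation loop, and these phosphatases remove both phosphates. Many of their genes are themselves switched on by MAP kinase signalling, so the enzymes form negative feedback loops. In macrophages, Dusp1 is known for limiting p38 and JNK activity and cytokine production after Toll-like receptor stimulation.

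Several of these genes are known targets of signal-dependent transcription factors, so their promoters were searched for motifs. RefSeq promoter sequence (GRCm38.p6, 250 bases before to 50 after the start) was at hand for 8 of the 9 members, and Dusp4 is named only. Windows around every match to the cAMP response element (CRE, TGACGTCA) or the E-box (CACGTG) are shown in gene orientation, with the match in capitals. They lie at chr17:26508578-26508630 (minus strand) for Dusp1, chr2:127336035-127336070 (plus strand) for Dusp2 and chr7:142095325-142095406 (minus strand) for Dusp8.
Dusp1: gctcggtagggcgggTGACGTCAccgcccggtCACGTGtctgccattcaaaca
Dusp2: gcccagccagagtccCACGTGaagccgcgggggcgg
Dusp8: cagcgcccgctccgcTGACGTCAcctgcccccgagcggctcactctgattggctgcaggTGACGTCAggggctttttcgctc

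The Dusp1 window holds a CRE that begins at -143 and an E-box at -126, counted from the RefSeq start of the gene. Dusp2 holds an E-box at -109, and Dusp8 holds a CRE at -107 and another at -63. The printed Dusp8 window lies inside the gene's bounds in the GENCODE annotation (chr7:142079490-142095843, minus strand). RefSeq and GENCODE thus place the Dusp8 start differently, and its CREs are upstream of the RefSeq start only. Among 32851 promoter windows of the same length, 1.79% held a CRE and 7.15% held an E-box, searched on both strands. The AP-1 motif (TGANTCA) occurred in 7.81% of those windows, the interferon-stimulated response element (GAAA and GAAA separated by any 2 bases) in 3.44% and the NF-κB motif in 4.51%. None of these 3 motifs matched in the 8 member windows, and Dusp5, Dusp6, Dusp7, Dusp10 and Dusp16 held none of the 5 motifs. CREB, which binds the CRE, is a known activator of Dusp1. A match is a description of the letters and not evidence of binding.

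Levels are given as RPKM (reads divided by the length of the gene's exons and by library size), which the authors computed and which allows levels of genes to be compared per length. Depth, recovered from the size of 1 read in the values, was 20.1 and 34.8 M reads in zfCTT, 88.1 and 88.2 M in mSTING, 55.7 and 171 M in dCTT, and 27.7 and 101 M in no_transgene. The transgene was checked through Tmem173, which encodes STING. It had 14.2 and 20.6 RPKM in zfCTT, 10.6 and 22.2 RPKM in mSTING, 22.7 and 14.98 RPKM in dCTT, and 3.23 and 2.42 RPKM in no_transgene. Tmem173 overlapped among the groups with a transgene, so it does not check which tail a line carried. The source of its signal in no_transgene cells was not tested. Replicates of a group correlated at r of 0.946 to 0.977 across tested genes. Of 12 macrophage markers, 10 were above 1 RPKM in all 8 libraries, Ptprc had 0.801 to 2.67 RPKM and Mertk stayed at 0.0460 to 0.374 RPKM. The summed macrophage markers were 1277 to 1634 RPKM in zfCTT, 1508 to 1841 RPKM in mSTING, 1787 to 1964 RPKM in dCTT and 2104 to 2231 RPKM in no_transgene, and their part in the DUSP differences below was not tested. Of 37 markers of other cell types in 7 lists, 36 were under 1 RPKM in all 8 libraries and 11 were at 0, among them all 4 mast cell markers. The exception was Lck, a T cell kinase, at 0.480 to 1.83 RPKM. Of the 6 markers of T or NK cells, Lck included, Cd3e and Ncr1 were at 0. The 6 summed to 1.80 to 1.83 RPKM in zfCTT and 1.29 to 1.68 RPKM in mSTING. In dCTT the sum was 0.687 to 0.807 RPKM and in no_transgene 0.5001 to 1.03 RPKM. Over all libraries it ranged from 0.5001 to 1.83 RPKM, nearly the range of Lck alone. The part of these markers in the DUSP differences was not tested either. In bulk RNA, fewer cells with a transcript and less of it per cell cannot be told apart.

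The 9 members spanned a wide range of levels. Dusp7 was the most abundant in all 6 libraries of mSTING, dCTT and no_transgene, and Dusp4 was the most abundant in both zfCTT libraries. Dusp16, Dusp10 and Dusp8 were the lowest, in that order, in all 8 libraries. Dusp8 and Dusp10 reached 1 RPKM in no library and so did not enter the test, which needed 1 RPKM in at least 2 libraries. The other 7 members were among the 13475 genes tested, and none of them passed that filter through zfCTT alone.

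**Figure D1:**
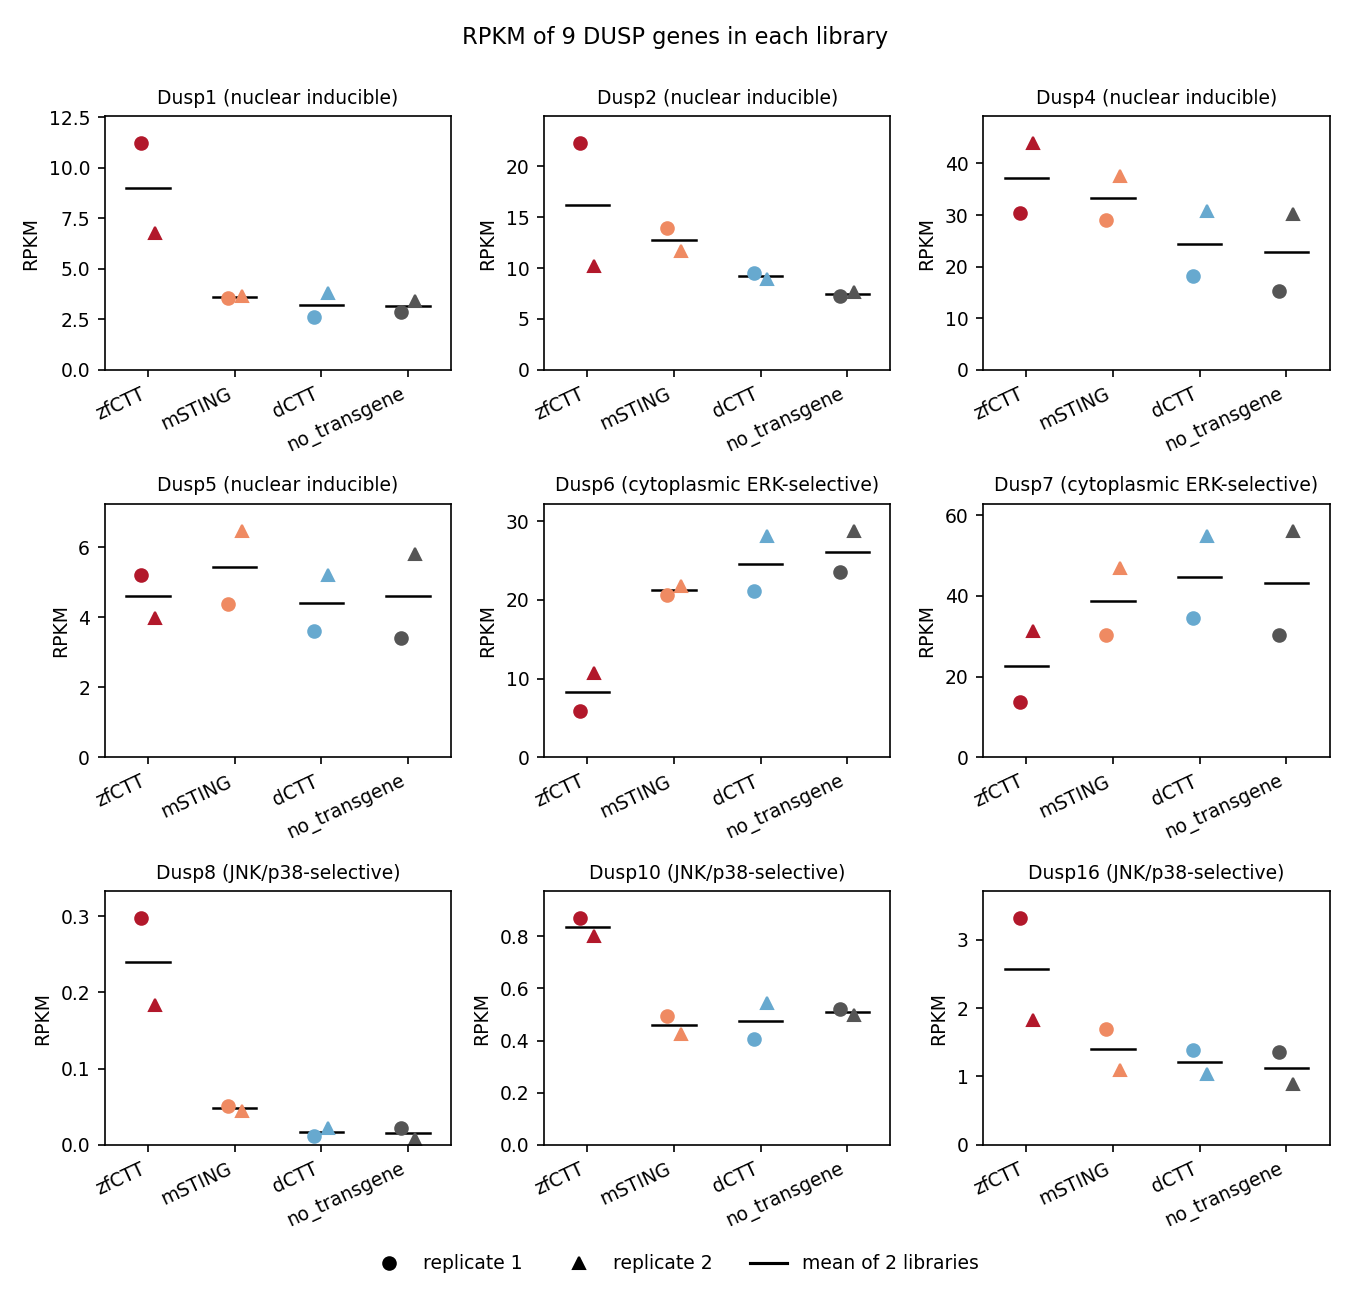
RPKM of the 9 DUSP genes (vertical axes, each from 0) in zfCTT, mSTING, dCTT and no_transgene cells. Circles are replicate 1, triangles replicate 2 and lines the mean of 2 libraries, and the Dusp6 values of zfCTT, 5.84 and 10.8 RPKM, sit below all other Dusp6 values.

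Dusp6 had the largest tested difference of the set, and it was lower in zfCTT cells. Dusp6 (ENSMUSG00000019960, chr10:99263231-99267489, plus strand, GRCm38) encodes a cytoplasmic phosphatase selective for ERK, and its transcription is known to follow ERK activity. It had 5.84 and 10.8 RPKM in zfCTT, 20.6 and 21.8 RPKM in mSTING, 21.1 and 28.1 RPKM in dCTT, and 23.5 and 28.8 RPKM in no_transgene. Both zfCTT libraries lay below all 6 others, whereas the other groups lay close together, with dCTT overlapping no_transgene. The mean was 8.30 ± 3.47 RPKM in zfCTT and 26.1 ± 3.73 RPKM in no_transgene (SD, n = 2 each), a level 3.15-fold lower in zfCTT.

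On the log2(RPKM + 1) scale used for all tests, the Dusp6 difference of zfCTT minus no_transgene was -1.59 ± 0.29 (SE). The moderated test of limma gave an adjusted p of 0.0638 (Benjamini-Hochberg over all genes tested), which misses the threshold of 0.05. Over 20 other settings of the fit the adjusted p ranged from 0.0217 to 0.409, and 3 of them called Dusp6. The same difference was -1.50 against dCTT (adjusted p = 0.0807) and -1.31 against mSTING (adjusted p = 0.273). Leaving out each library in turn gave -1.98 to -1.20 against no_transgene, and the value nearest 0 was the one without zfCTT replicate 1. The 3 comparisons share the zfCTT libraries and are not separate evidence.

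Dusp7 encodes the other cytoplasmic ERK phosphatase of the set (ENSMUSG00000053716, chr9:106368632-106375724, plus strand). It had 13.7 and 31.3 RPKM in zfCTT, 30.2 and 47.0 RPKM in mSTING, 34.5 and 54.9 RPKM in dCTT, and 30.3 and 56.1 RPKM in no_transgene. The zfCTT libraries lay below both dCTT libraries and overlapped mSTING and no_transgene, and the 2 libraries of each group stood far apart. The difference of zfCTT minus no_transgene was -0.96 ± 0.49 (SE, limma adjusted p = 0.468), and it was -0.39 without zfCTT replicate 1.

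For several members the same replicate number was the lower one in every group. Replicate 1 was lower than replicate 2 in all 4 groups for Dusp4, Dusp6 and Dusp7, as it was for 17.3% of all tested genes. The reverse, replicate 1 higher in all 4 groups, held for Dusp16 and for 14.3% of all tested genes. Libraries also differed by GC content, the share of G and C bases in a transcript. Deviations from the gene mean correlated with it at -0.171 and 0.1465 in zfCTT and -0.348 and 0.209 in no_transgene (replicates 1 and 2). In mSTING the correlations were 0.138 and 0.172, and in dCTT 0.0481 and 0.170. The part of GC content in these orders was not tested.

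Dusp1 was the nuclear inducible member with the largest difference, and it was higher in zfCTT cells. Dusp1 (ENSMUSG00000024190, chr17:26505590-26508519, minus strand) encodes an immediate-early phosphatase that acts mainly on p38 and JNK. It had 11.2 and 6.76 RPKM in zfCTT, 3.57 and 3.63 RPKM in mSTING, 2.59 and 3.79 RPKM in dCTT, and 2.86 and 3.42 RPKM in no_transgene. The zfCTT libraries stood above all 6 others, which were between 2.59 and 3.79 RPKM. The mean was 8.98 ± 3.15 RPKM in zfCTT and 3.14 ± 0.396 RPKM in no_transgene (SD, n = 2 each), 2.86-fold higher in zfCTT.

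The Dusp1 difference of zfCTT minus no_transgene was 1.24 ± 0.26 (SE), with a limma adjusted p of 0.0925, which ranged from 0.0362 to 0.478 over other settings, 1 of which called Dusp1. It was 1.23 against dCTT (adjusted p = 0.0968) and 1.08 against mSTING (adjusted p = 0.307). Without zfCTT replicate 1 the Dusp1 difference was 0.91 against no_transgene, 0.90 against dCTT and 0.75 against mSTING. Between mSTING and no_transgene the difference was 0.15 (adjusted p = 0.883). The annotation also lists exons of Dusp1 far upstream that overlap Ergic1 on the other strand, but the values came out as whole reads only at the 2697 exon bases of the gene proper, without those exons.

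Dusp2 encodes a nuclear phosphatase that is abundant in activated leukocytes (ENSMUSG00000027368, chr2:127336159-127338376, plus strand). It had 22.3 and 10.2 RPKM in zfCTT, 13.9 and 11.7 RPKM in mSTING, 9.56 and 8.88 RPKM in dCTT, and 7.29 and 7.66 RPKM in no_transgene. Its 4 groups were graded, and no_transgene lay below the 3 groups with a transgene without overlap, while zfCTT and mSTING overlapped. The difference from no_transgene was 0.93 ± 0.33 in zfCTT (SE, limma adjusted p = 0.304), 0.70 in mSTING (adjusted p = 0.840) and 0.27 in dCTT (adjusted p = 1). The zfCTT value was 0.40 without zfCTT replicate 1.

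Dusp4 encodes a nuclear phosphatase of ERK and JNK (ENSMUSG00000031530, chr8:34807297-34819894, plus strand). It had 30.4 and 43.9 RPKM in zfCTT, 29.1 and 37.5 RPKM in mSTING, 18.1 and 30.7 RPKM in dCTT, and 15.3 and 30.2 RPKM in no_transgene. The libraries of a group lay far apart, and the lowest zfCTT library stood barely above the highest no_transgene library. The difference of zfCTT minus no_transgene was 0.74 ± 0.40 (SE, limma adjusted p = 0.491), and it was 0.27 without no_transgene replicate 1.

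Dusp5 encodes a nuclear phosphatase specific for ERK (ENSMUSG00000034765, chr19:53529109-53542431, plus strand), and in zfCTT against no_transgene it was the inducible member with the smallest difference. It had 5.22 and 3.97 RPKM in zfCTT, 4.39 and 6.47 RPKM in mSTING, 3.61 and 5.20 RPKM in dCTT, and 3.41 and 5.82 RPKM in no_transgene. All 4 groups overlapped. The difference of zfCTT minus no_transgene was 0.02 ± 0.30 (SE, limma adjusted p = 0.986), and its sign changed with the setting. An antisense gene overlaps Dusp5, and the labels do not state how strand was handled in counting, so its level is uncertain in that respect.

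**Figure D2:**
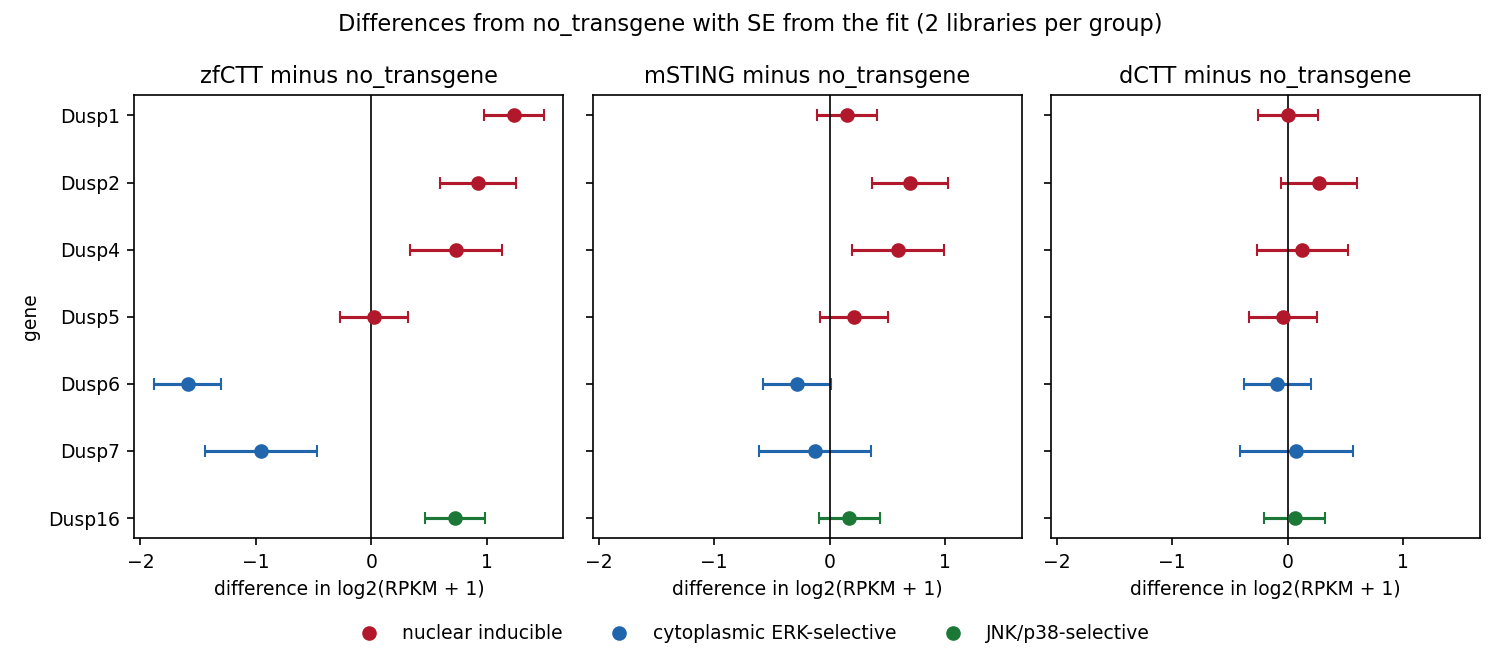
Differences in log2(RPKM + 1) from no_transgene (horizontal axes) for the 7 tested DUSP genes in zfCTT, mSTING and dCTT cells, with bars of 1 SE from the limma fit over 2 libraries per group. In zfCTT the points lie between -1.59 for Dusp6 and 1.24 for Dusp1, and in dCTT none lies farther from 0 than the 0.27 of Dusp2.

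The JNK/p38-selective members were scarce. Dusp16 (ENSMUSG00000030203, chr6:134715468-134792625, minus strand), a phosphatase of JNK, had 3.31 and 1.83 RPKM in zfCTT, 1.70 and 1.101 RPKM in mSTING, 1.38 and 1.04 RPKM in dCTT, and 1.36 and 0.892 RPKM in no_transgene. All 6 other libraries lay below those of zfCTT. The difference of zfCTT minus no_transgene was 0.72 ± 0.26 (SE, limma adjusted p = 0.310), and it was 0.42 without zfCTT replicate 1. At levels this low the log2(RPKM + 1) scale understates a fold.

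Dusp10 (ENSMUSG00000039384, chr1:184013302-184075636, plus strand), which acts on JNK and p38, had 0.869 and 0.803 RPKM in zfCTT, 0.496 and 0.425 RPKM in mSTING, 0.407 and 0.543 RPKM in dCTT, and 0.522 and 0.497 RPKM in no_transgene. The zfCTT libraries were the 2 highest of the 8, and the replicates were close. The values rest on 138 reads in zfCTT and 197 reads in no_transgene, and the read rate was 1.65-fold higher in zfCTT, with an exact 95% interval of 1.31 to 2.06 that covers counting error only. With no filter on low values, limma gave Dusp10 an adjusted p of 0.307.

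Dusp8 (ENSMUSG00000037887, chr7:142079490-142095843, minus strand), better known from brain and heart, had 0.297 and 0.183 RPKM in zfCTT, 0.0513 and 0.0443 RPKM in mSTING, 0.0111 and 0.0216 RPKM in dCTT, and 0.0222 and 0.00812 RPKM in no_transgene. Dusp8 was highest in the zfCTT libraries, then in both mSTING libraries, which in turn lay above the 4 libraries of dCTT and no_transgene. The zfCTT libraries held 60 reads of Dusp8, against 7 reads in no_transgene at a larger summed depth, a read rate 20.1-fold higher (exact 95% interval 9.20 to 52.3, counting error only). The mSTING libraries held 41 reads, a rate 4.28-fold higher than in no_transgene (1.903 to 11.3). These intervals compare libraries and not conditions. With no filter, the difference of zfCTT minus no_transgene for Dusp8 was 0.29 on the log2(RPKM + 1) scale (limma adjusted p = 0.113). Dusp8 is the gene whose RefSeq promoter window, inside its GENCODE bounds, holds a pair of CREs. The part of these CREs in its level was not tested. An overlapping gene on its other strand, Gm32786, was listed at 0 in all libraries.

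Over the set, limma called 0 of the 7 tested members between zfCTT and no_transgene at an adjusted p under 0.05, where it called 1.08% of all genes tested. At an unadjusted p under 0.05 there were 4 members (Dusp1, Dusp2, Dusp6, Dusp16), where 13.4% of all genes passed. Voom on recovered reads also called 0 at an adjusted p under 0.05. A replicate block, which adds the replicate number to the fit, called 1 (Dusp6, limma adjusted p = 0.0236), among 432 genes in all. Protein-coding genes only gave 2 (Dusp6, Dusp1), and the block with the GC trend removed gave 2 (Dusp6, Dusp7). The labels tie the replicate numbers to no shared culture or day, so the block was not the main fit. Both zfCTT libraries lay above both no_transgene libraries for 4 of the 7 members and for 18.8% of all genes, and below them for 1 of the 7 and for 20.8% of all genes. The median difference was 0.72 over the 7 members and -0.04 over all genes. The members did not share a direction. The 4 nuclear inducible members had a median of 0.83 and the 2 cytoplasmic members a median of -1.27. These medians cover the listed members only. Dusp9, a MAP kinase phosphatase not among the 9, had 0.20 (limma adjusted p = 0.911), with overlap.

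Between zfCTT and dCTT limma also called 0 of the 7 members, where it called 1.08% of all genes. Unadjusted, 3 members passed (Dusp1, Dusp6, Dusp16), against 12.7% of all genes. Voom called 0, whereas the replicate block called 2 (Dusp6 and Dusp7, limma adjusted p = 0.0259 and 0.0485), among 409 genes in all. Protein-coding genes only gave 2 (Dusp6, Dusp1), and the block with the GC trend removed gave 2 (Dusp6, Dusp7). The zfCTT libraries lay above the dCTT libraries without overlap for 3 members, Dusp1, Dusp2 and Dusp16, and below them for 2, Dusp6 and Dusp7, where 20.1% and 24.7% of all genes did so. The difference of Dusp2 was 0.66 (adjusted p = 0.479), that of Dusp4 0.61 (adjusted p = 0.585) and that of Dusp7 -1.03 (adjusted p = 0.454). Without zfCTT replicate 1 they were 0.13 for Dusp2, -0.46 for Dusp7 and 0.36 for Dusp16, and without dCTT replicate 1 that of Dusp4 was 0.24.

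Between zfCTT and mSTING, 3 of the 7 tested members did not overlap. Of all genes, 24.9% lay above and 24.4% below without overlap, and the members did not exceed that share. Limma called 0 of 7, where it called 0.119% of all genes, and voom called 0. Unadjusted, Dusp1 and Dusp6 passed, 2 of 7, against 11% of all genes. Dusp1 and Dusp16 were the members above without overlap, and Dusp6 was the member below. The inducible members Dusp2 and Dusp4 differed by 0.23 and 0.14 (adjusted p = 0.784 and 0.898), and for both the sign changed when single libraries were left out.

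The largest member differences were smaller in the comparisons without zfCTT. Between mSTING and no_transgene limma called 0 of the 7 members and 0% of all genes. No member passed an unadjusted p under 0.05, where 3.47% of all genes did, and voom called 0. Dusp1 and Dusp2 lay above no_transgene without overlap, as did 15.3% of all genes, and Dusp6 lay below it, as did 17% of all genes. The Dusp6 difference was -0.28 (adjusted p = 0.842) and the Dusp4 difference was 0.60 (adjusted p = 0.840). Leaving out single libraries gave -0.42 to -0.14 for Dusp6 and 0.13 to 1.06 for Dusp4, with the values nearest 0 without no_transgene replicate 2 for Dusp6 and without no_transgene replicate 1 for Dusp4.

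Between dCTT and no_transgene the largest difference of the 7 members was the 0.27 of Dusp2, the only tested member without overlap, where 7.75% of all genes lay above and 6.69% below. Between dCTT and mSTING it was the -0.47 of Dusp4, and Dusp2 was the only tested member without overlap, with dCTT below, where 12.8% of all genes lay below and 16.2% above. In both comparisons limma called 0 of 7 members and 0% of all genes, voom called 0 members and 0 members passed unadjusted, where 0.267% and 2.49% of all genes did. The largest member difference reached 0.59 in size between dCTT and no_transgene without no_transgene replicate 2, and 0.835 between dCTT and mSTING without dCTT replicate 2.

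The balance between the classes can be read from their summed levels per library. The 4 nuclear inducible members summed to 69.1 and 64.8 RPKM in zfCTT, 51.0 and 59.3 RPKM in mSTING, 33.9 and 48.6 RPKM in dCTT, and 28.9 and 47.1 RPKM in no_transgene. The 2 cytoplasmic members summed to 19.5 and 42.1 RPKM in zfCTT, 50.8 and 68.8 RPKM in mSTING, 55.6 and 83.0 RPKM in dCTT, and 53.8 and 84.8 RPKM in no_transgene. The first sum was highest and the second lowest in zfCTT.

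The ratio of inducible to cytoplasmic sums was 3.53 and 1.54 in zfCTT, 1.003 and 0.862 in mSTING, 0.609 and 0.585 in dCTT, and 0.537 and 0.555 in no_transgene. The 4 groups did not overlap in this ratio. Relative to their size, its replicates lay closer together than those of either sum in dCTT and no_transgene. In zfCTT they lay farther apart than those of either sum. The ratio was formed after the values were known and is given as a description with no test. Dusp4 and Dusp7 were the largest terms of the 2 sums, and Dusp4 over Dusp7 was 2.22 and 1.40 in zfCTT, 0.963 and 0.798 in mSTING, 0.524 and 0.560 in dCTT, and 0.505 and 0.538 in no_transgene. The pair Dusp1 over Dusp6 gave 1.92 and 0.628 in zfCTT, 0.173 and 0.166 in mSTING, 0.123 and 0.135 in dCTT, and 0.122 and 0.119 in no_transgene. In contrast, the sum over all 9 members overlapped among the groups, with 93.1 and 109.6 RPKM in zfCTT, 104 and 129.7 RPKM in mSTING, 91.2 and 133 RPKM in dCTT, and 84.6 and 133 RPKM in no_transgene.

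**Figure D3:**
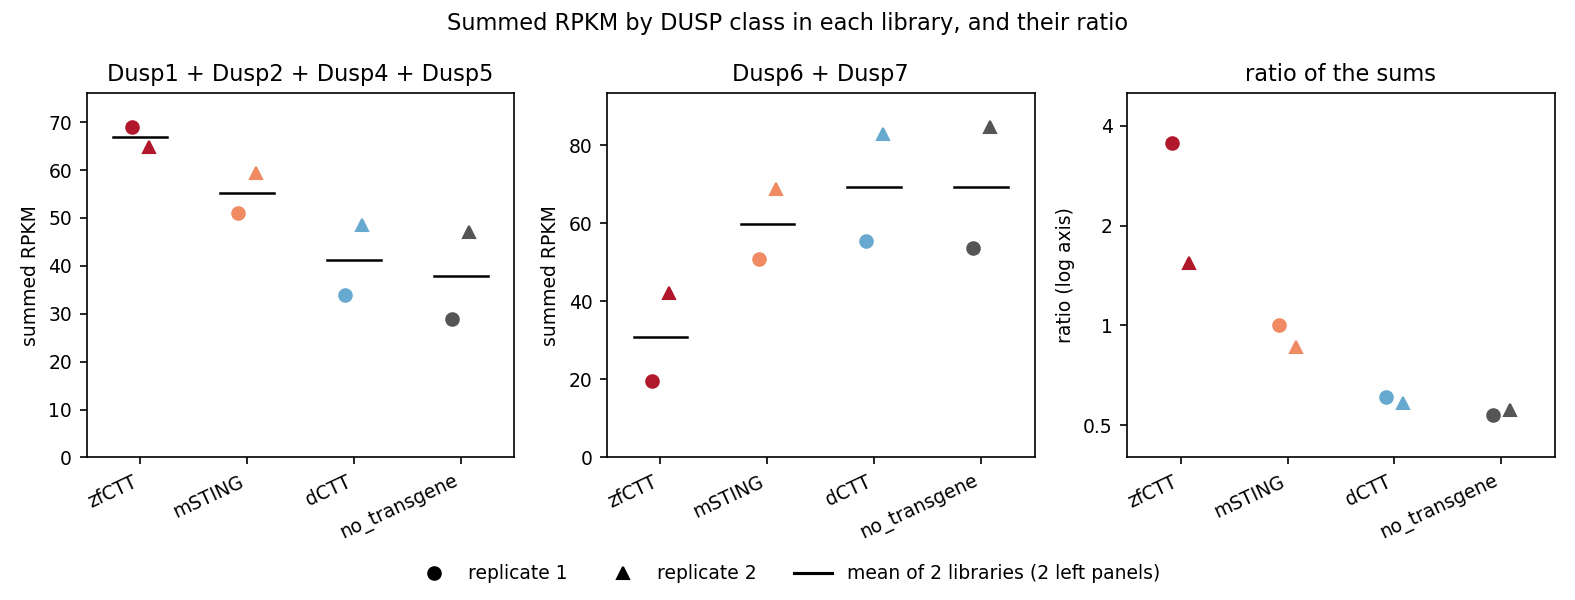
Summed RPKM of the 4 nuclear inducible genes (left) and the 2 cytoplasmic genes (middle), and their ratio on a log axis (right), in zfCTT, mSTING, dCTT and no_transgene cells. Circles are replicate 1, triangles replicate 2 and, in the left and middle panels only, lines the mean of 2 libraries. The ratio is 3.53 and 1.54 in zfCTT against 0.537 and 0.555 in no_transgene.

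The genes around these phosphatases in the MAP kinase pathway were read from 7 lists with 99 genes, of which 72 were tested. Between zfCTT and no_transgene 0 rose and 1 fell, between zfCTT and dCTT 0 rose and the same 1 fell, and in each of the other comparisons 0 rose and 0 fell. The gene that fell was Ptpn7, a tyrosine phosphatase of leukocytes that acts on ERK and p38 and is no DUSP. It had 6.39 and 8.39 RPKM in zfCTT, 11.4 and 13.4 RPKM in mSTING, 19.9 and 17.8 RPKM in dCTT, and 18.1 and 18.4 RPKM in no_transgene. The zfCTT libraries lay lowest, the mSTING libraries came next and the dCTT libraries overlapped those of no_transgene.

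The Ptpn7 difference was -1.21 ± 0.19 against no_transgene (SE, limma adjusted p = 0.0459) and -1.25 ± 0.19 against dCTT (adjusted p = 0.0428). Against mSTING it was -0.68 (adjusted p = 0.370). Leaving out any 1 of the 8 libraries ended both calls. The difference in those fits stayed at -1.38 to -1.04 against no_transgene and -1.42 to -1.08 against dCTT. Voom on recovered reads gave 0.0546 against no_transgene and 0.0341 against dCTT.

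None of the other lists held a called gene in any of the 6 comparisons. Their median differences of zfCTT minus no_transgene were -0.26 for 9 tested MAP kinases, -0.06 for 7 MAP2 kinases, -0.01 for 19 MAP3 kinases and scaffolds, -0.11 for 10 kinases downstream of MAP kinases, -0.23 for 8 atypical dual-specificity phosphatases and 0.01 for 12 regulators of DUSP mRNA and protein, where the median of all genes was -0.04. For the 7 other MAP kinase phosphatases, Ptpn7 included, it was -0.03.

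Among the regulators, the larger values belonged to Zfp36 and Zfp36l2. Zfp36 encodes tristetraprolin, which binds AU-rich elements and promotes decay of mRNAs, that of Dusp1 among them. It had 61.6 and 81.1 RPKM in zfCTT, 32.1 and 36.7 RPKM in mSTING, 16.6 and 32.4 RPKM in dCTT, and 19.7 and 36.8 RPKM in no_transgene. Its level was highest in the zfCTT libraries, at 1.36 ± 0.40 over no_transgene (SE, limma adjusted p = 0.205). Its relative Zfp36l2 lay the other way, at -1.17 ± 0.47 (adjusted p = 0.355), and it was -0.57 without zfCTT replicate 1.

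Among the kinases, Mapkapk2, which p38 activates, had 172 and 160.2 RPKM in zfCTT, 141 and 123 RPKM in mSTING, 119 and 112 RPKM in dCTT, and 88.7 and 108 RPKM in no_transgene. Its groups did not overlap, and the difference of zfCTT minus no_transgene was 0.75 ± 0.18 (SE, limma adjusted p = 0.136). The value of Mapk6, the gene of an atypical MAP kinase, was 0.63 (adjusted p = 0.433). Those of Map2k1 and Map2k4 were 0.35 and -0.17, those of Map3k4 and Map3k11 were 0.49 and -0.44, and Mknk2 had -0.58. Of the remaining phosphatases, Dusp9 had 0.20, Dusp23 -0.58 and the pseudophosphatase Styx -0.39, none of them called. Without zfCTT replicate 1 these were 0.27 for Map3k4, -0.20 for Mknk2, -0.10 for Dusp23 and -0.25 for Styx. Without no_transgene replicate 1 the value of Mapk6 was 0.32, and without no_transgene replicate 2 that of Map3k11 was -0.055.

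**Figure D4:**
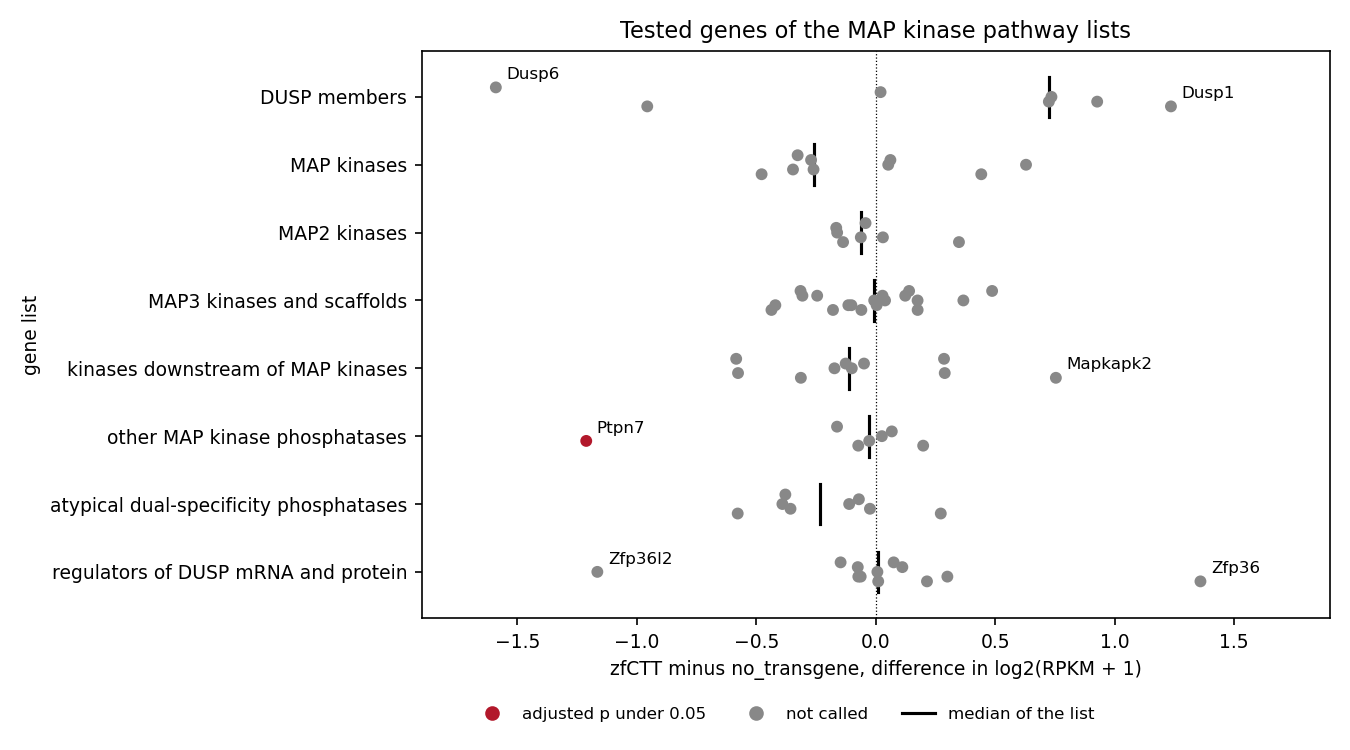
Difference in log2(RPKM + 1) of zfCTT minus no_transgene (horizontal axis) for each tested gene of the DUSP set and the 7 pathway lists (rows), with the median of each list as a line. The called gene, Ptpn7 at -1.21, is in red, and the DUSP genes reach -1.59 and 1.24.

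Genes with the most similar pattern over the 8 libraries were sought for the 3 tested members with the largest range of group means, by Pearson's r of log2(RPKM + 1) among 9612 genes. For Dusp6 these were Bcl7a and Ccdc69 (r = 0.984 each) and BC017158 (r = 0.983), and 89 genes had r above 0.95. For Dusp1 they were Fndc3b (r = 0.992), Sertad2 (r = 0.988) and Pdlim5 (r = 0.986), and 99 genes had r above 0.95. For Dusp7 they were Trem2 (r = 0.994), Zfp384 (r = 0.993) and Psen2 (r = 0.992), with 161 genes above 0.95. All pairs of genes share the same 8 libraries and their depths, so these values describe the pattern only.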

How the data were processed

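RNA was extracted with phenol-chloroform and made into single-end libraries of polyadenylated RNA, per the labels' protocols. The deposited table holds RPKM, computed by the authors. Per the submitters' processing notes, the tools include cutadapt 1.16 and HISAT2 2.1.0 and the builds GRCm38 and mm10, without their roles. Which tool counted reads, with which annotation and strand setting, is not given in the sources used here. Symbols were found for 53620 of 53715 genes. GENCODE (GRCm38) supplied coordinates and exon lengths.

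The main test used no count model. For it, limma 3.58.1 (R 4.3.3) was run on log2(RPKM + 1) for the 13475 genes with at least 1 RPKM in at least 2 of 8 libraries. A single fit held a mean per group (4 residual degrees of freedom, intensity trend, two-sided), with 6 comparisons and Benjamini-Hochberg adjustment at 0.05. It was tested on simulated libraries that varied independently of each other, so that test does not cover deviations shared by same-numbered libraries. Values multiplied by exon length gave whole reads, within 0.05 of a read, for 95.0% to 95.6% of values, and those reads gave depth and a limma-voom alternative. Exact intervals used SciPy 1.17.1 and cover counting error only.

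Groups came from the transgene label and replicate numbers from the titles. Members and lists were chosen with earlier results of these data known. The text names every member, every called gene of the 7 pathway lists, the 2 genes per list with the largest difference of zfCTT minus no_transgene, and the 3 genes most similar to each of 3 members; 1 gene that this rule names is not reported here. Alternatives were pseudocounts of 0.1 and 0.5, no filter, a mean RPKM of at least 5, median scaling, a replicate block, leaving out libraries, voom and fits of only 2 groups. Protein-coding genes only and removal of a GC trend, with and without the block, were added after seeing the data.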

Additional observations from a re-analysis of the deposited data

How the results depend on the processing

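Counts of called members moved under 3 of the 20 settings. Between zfCTT and no_transgene the replicate block gave 1 (Dusp6, adjusted p = 0.0236), protein-coding genes only gave 2 (Dusp6 at 0.0217, Dusp1 at 0.0362) and the replicate block with the GC trend removed gave 2 (Dusp6 at 0.0344, Dusp7 at 0.0374), within adjusted p of 0.0217 to 0.409 for Dusp6, 0.0362 to 0.478 for Dusp1 and 0.0374 to 0.920 for Dusp7 over all settings. Between zfCTT and dCTT the block gave 2 (Dusp6 at 0.0259, Dusp7 at 0.0485), protein-coding genes only gave 2 (Dusp6 at 0.0290, Dusp1 at 0.0377) and the block with the GC trend removed gave 2 (Dusp6 at 0.0395, Dusp7 at 0.0436). Leaving out single libraries gave 0 to 0 in all 6 comparisons. The cause was not tested. Deviations of same-numbered libraries correlated at 0.433 between zfCTT and no_transgene, 0.399 between zfCTT and dCTT, 0.762 between dCTT and no_transgene and 0.264 between zfCTT and mSTING, but at 0.0318 and 0.0364 between mSTING and the other two. The labels tie the numbers to no shared culture or day and there are only 2 of them, so they were not treated as a pairing.

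Pathway genes called between zfCTT and no_transgene, 1 in the report, numbered 0 with no filter, 0 without replicate 1 of no_transgene and dCTT together, 0 with voom, 0 with only 2 groups, 2 with the replicate block (Ptpn7 and Zfp36, the second at an adjusted p of 0.0438 within 0.0438 to 0.613), 2 with the block and GC trend removed (Ptpn7 and Zfp36l2, the second at 0.0493 within 0.0493 to 0.912), and 0 to 0 leaving out single libraries. Between zfCTT and dCTT, also 1 in the report, the counts were 0 with no filter, 0 without those 2 libraries, 0 with only 2 groups, 3 with the block, 2 with the block and GC trend removed, and 0 to 0 leaving out single libraries. All genes called, 146 in both comparisons, ranged from 0 to 432 and from 0 to 409 over the settings, and the 16 between zfCTT and mSTING from 0 to 63. Where 0 genes were called, the ranges were 0 to 16 for mSTING and no_transgene, 0 to 14 for dCTT and mSTING, and 0 to 0 for dCTT and no_transgene.

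Of 490 differences of members under other settings, 467 kept direction and side of the threshold, 12 changed sign and 11 passed the threshold. Dusp5 turned to -0.29 without replicate 1 of no_transgene and dCTT together and to -0.12 with voom against no_transgene, and to -0.16 and -0.011 against dCTT. Dusp9 turned to -0.18 in zfCTT minus no_transgene without those 2 libraries. Leaving out single libraries gave -0.29 to 0.33 for Dusp5 against no_transgene, -0.16 to 0.27 against dCTT and -0.42 to 0.046 against mSTING. Against mSTING it gave -0.30 to 0.76 for Dusp2 and -0.12 to 0.40 for Dusp4, and against no_transgene -0.38 to 0.047 for Map2k4 and -0.21 to 0.60 for Dusp9. With 2 libraries per group and depths that differ 8.55-fold, Dusp8 rests on as few as 3 reads per library.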
